A study of Haemaphysalis flava with 2 samples.

Results

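In the salivary gland transcriptome of Haemaphysalis flava, a hard tick, assembled into 54357 contigs, 148 carried the name of a lipocalin or of a serotonin and histamine binding protein. They were found by searching each contig's description, the name of its best-matching database protein, for the words lipocalin, histamine binding and serotonin binding, whatever their case. The names, 14 in all, came from 48 database proteins of other tick species. By name, 61 contigs were group I salivary lipocalins, 51 were salivary lipocalins with no group, and 19 were lipocalins with no other word except fragment or precursor. A further 8 were group II, 3 were group III and 1 was a group V salivary lipocalin, and 4 were serotonin and histamine binding proteins. The remaining contig (contig_8110) matched a lipocalin-interacting membrane receptor, which by its name is no lipocalin itself. The group numbers are those of the matched descriptions and were not derived from sequence here.

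Lipocalins are small secreted proteins folded into a barrel of beta strands that encloses a binding pocket. In ticks the family is greatly expanded in saliva, where members bind small mediators that the host releases at the bite. Histamine, which raises vessel permeability and itch, and serotonin, released by platelets, are bound by the best-studied hard tick proteins of Rhipicephalus and Dermacentor. Lipocalins of soft ticks are known to bind leukotrienes or to block complement.

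Salivary glands were compared between engorged ticks, which are full of host blood, and semi-engorged ticks, which are partly fed. The series text speaks of 50 ticks at each stage and of 100 glands, and polyadenylated RNA of each stage was sequenced as 1 library, named ET for engorged and SET for semi-engorged ticks as in the labels. Neither the sex nor the host of the ticks is given in the sources used here. The ET library held 57892372 reads on contigs and the SET library 54039984. With 1 library per stage, no difference has a replicate check, no p-value was computed, and every interval covers counting error only. Contigs named for gland products and gland transport (cement, glycine-rich, aquaporin, sodium pump and salivary gland proteins) took 0.828% of engorged and 3.25% of semi-engorged reads, and 12 of 110 were higher in ET and 56 in SET on the rule given below. Markers of muscle took 0.0757% and 0.0653%, of nerve 0.0646% and 0.0896%, of haemocytes and fat body 0.207% and 0.205%, and of midgut and cuticle 0.0210% and 0.0472%. Counts higher in ET and SET were 8 and 8 of 35 for muscle, 0 and 2 of 7 for nerve, 3 and 0 of 29 for haemocytes and fat body, and 3 and 11 of 37 for midgut and cuticle. The part of these tissues in the lipocalin values was not tested, and fewer gland cells cannot be told apart from less RNA per cell.

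Lipocalin RNA made up a smaller part of ET, and most of its abundant lipocalin contigs were not those abundant in SET. The 148 contigs held 116865 engorged reads, 0.202% of that library (Wilson 95% interval 0.201% to 0.203%). In SET they held 282298 reads, 0.522% (0.520% to 0.524%), a share 2.59 times as large. All 148 had at least 20 reads over both libraries, the minimum for a contig to be compared. A contig counted as higher in ET or SET from a 2-fold difference upward on the scale of CPM + 1, with CPM meaning reads per 1000000 of the library total. By this rule 38 were higher in ET and 78 in SET, and 32 were in neither class. Over all 47965 contigs compared, 13% were higher in ET and 15.5% in SET, against 25.7% and 52.7% of the lipocalins. With a pseudocount of 10 CPM in place of 1, these were 4.21% and 5.23% of all contigs, against 16 and 39 lipocalins (10.8% and 26.4%). Their median log2 fold, engorged over semi-engorged, was -1.12 with quartiles of -3.64 and 1.03, where the median of all contigs was -0.049 with quartiles of -0.61 and 0.51. Without a block of high contig numbers with few engorged reads, described further on, the counts were 38 and 32 and the median turned to 0.47. Over the pseudocount choices the median ran from -0.18 (10 CPM) to -4.04 (no pseudocount, counts of 0 set to 3 reads).

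**Figure D1:**
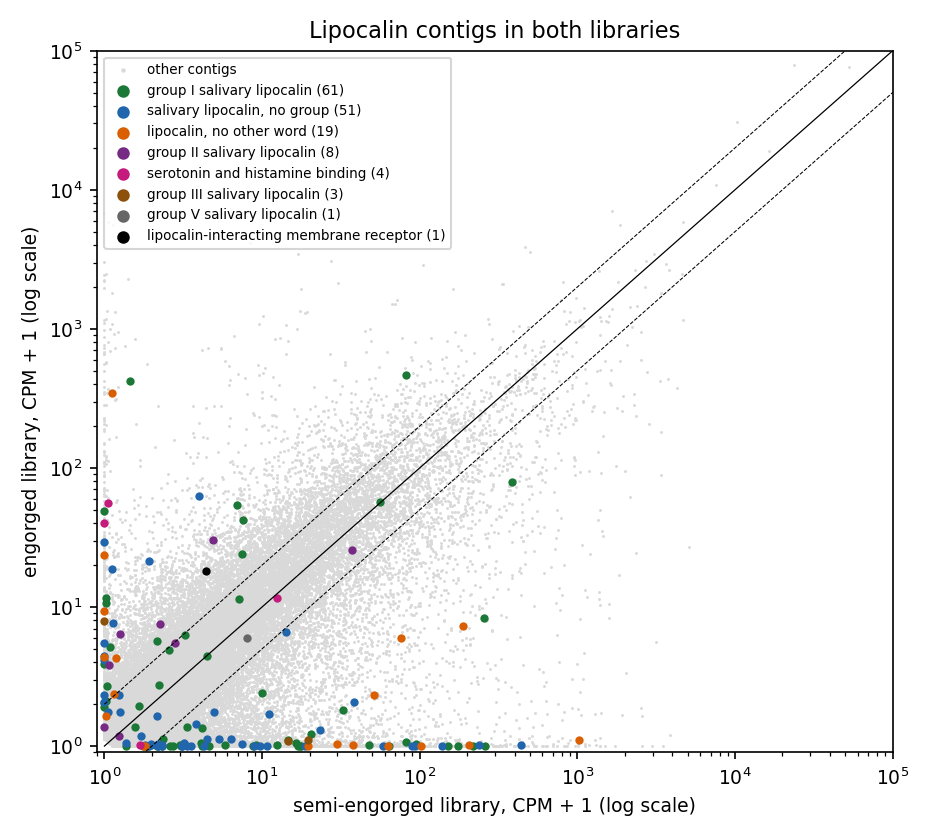
Each point is a contig, placed by its CPM + 1 in SET (x axis, log scale) and in ET (y axis, log scale). Grey points are other contigs, colours give the kind of lipocalin description with its number of contigs, and dashed lines mark a 2-fold difference. Most abundant lipocalins lie along an axis, near 0 CPM in 1 of the libraries.

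Large differences were common within the family. A 10-fold difference on the CPM + 1 scale was reached toward ET by 12 contigs (8.11%, against 1.04% of all contigs) and toward SET by 39 (26.4%, against 2.81%). Together these are 34.5% of the family, where 3.85% of all contigs reached it in either direction. Low contigs cannot reach it, so the same was counted among contigs with at least 100 reads over both libraries. There 51 of 112 lipocalins differed 10-fold, 45.5%, against 6.33% of all such contigs, and 101 differed 2-fold, 90.2% against 43.1%. Of 47 lipocalins with at least 100 engorged reads, 11 had no semi-engorged read, 23.4% against 0.999% of all contigs with that many. Of 82 with at least 100 semi-engorged reads, 28 had no engorged read, 34.1% against 3.99%. Of these 28, 27 lay in the block of high contig numbers, so this contrast depends mostly on the block, as set out further on. A read count of 0 allows up to 0.0518 CPM in ET and 0.0555 CPM in SET, the worth of 3 reads.

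The reads of the family lay on few contigs, and these were mostly not the same contigs in the libraries. In ET 3 contigs held 60.6% of its lipocalin reads and 10 held 80.1%, and 18 contigs reached 90%. The semi-engorged reads were spread more widely, with 35.4% on 3 contigs and 64.7% on 10, and 28 contigs reached 90%. The lists of the 10 most abundant contigs had 1 contig in common, as in the Kunitz family, where metalloproteases and Da-p36-related proteins shared 2 each and all contigs 6. The leading 10 of ET held 93572 of its reads and 29033 semi-engorged reads, 10.3% of the lipocalin reads there, most of them on the shared contig. The leading 10 of SET held 182757 reads there and 5351 in ET, 4.58% of its lipocalin reads. At least 1 read was found on 107 of the 148 contigs in ET and on 132 in SET.

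**Figure D2:**
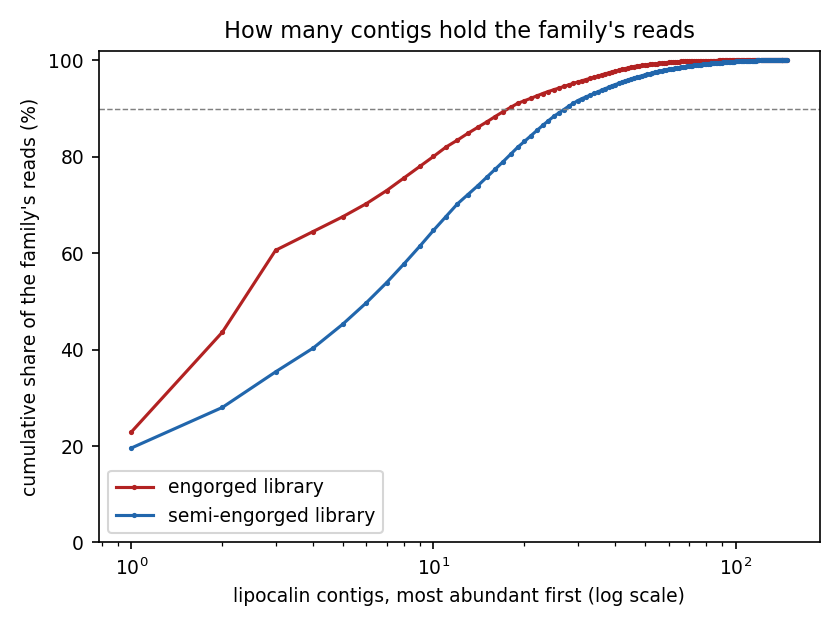
Lipocalin contigs were ordered from most to least abundant within each library (x axis, log scale), and the y axis gives the cumulative percent of the family's reads in that library. The engorged curve lies higher at the left, with 60.6% of reads on 3 contigs against 35.4%, and the dashed line marks 90%.

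Levels are given below as RPKM, the authors' value scaled to contig length and library total, which allows contigs of different length to be compared. The highest lipocalin of ET was the group I contig_13417 at 723 RPKM, the contig of rank 151 among all 54357. It had 126 RPKM in SET (26801 against 4372 reads), a CPM ratio of 5.72 (exact Clopper-Pearson 95% interval 5.54 to 5.91). Next came group I contig_446 at 549 RPKM against 0.584, and lipocalin contig_1270 at 356 against 0.115. The former had 24186 reads against 24 and the latter 19838 against 6, so of the leading 3 engorged contigs only contig_13417 was also abundant in SET.

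In SET the highest level belonged to group I contig_35380, at 1129 RPKM against 231 in ET. It is the shared contig of both leading lists, rank 124 among all semi-engorged contigs, and its CPM was 4.89-fold higher there (4.74 to 5.06). Lipocalin contig_45036 followed with 832 RPKM against 0.0843, on 55320 reads against 6, and it alone held 19.6% of the semi-engorged lipocalin reads. The salivary lipocalin contig_49683 stood at 489 RPKM on 23748 reads, with 1 read in ET. Group I contig_5836 was at 430 RPKM against 12.3 and was 35-fold higher (31.7 to 38.6). Group I contig_49676 had 308 RPKM on 14002 reads and salivary lipocalin contig_12736 had 251 RPKM on 12723 reads, with 0 and 1 engorged reads. The other 4 of the leading 10 were contig_6864, contig_49633, contig_49816 and contig_49752, with 9378 to 11767 semi-engorged reads. Of these, contig_6864 had 364 engorged reads, contig_49633 had 1 and the other pair had 0. Among the leading 10, 5 lie in the block of high contig numbers with few engorged reads.

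Not every kind of lipocalin leaned the same way. The 4 serotonin and histamine binding contigs, 3 of which match names marked putative, together held 6057 engorged and 661 semi-engorged reads. The ratio of their shares was 8.55 (7.89 to 9.28). Contig_1638, matching a protein of Rhipicephalus haemaphysaloides, had 106 RPKM in ET and 0.107 RPKM in SET, on 3167 reads against 3, a ratio of 985 (337 to 4781). Contig_10066, matching a protein of Rhipicephalus sanguineus, had 45.6 RPKM on 2277 reads against 0 in SET. With the 0 set to 3 reads the excess was 708-fold, and the exact lower limit was 576. Contig_6949 shares its best match with contig_1638 but had 612 reads against 621, at 21.2 and 23.1 RPKM. The last, contig_48746, which matches the serotonin and histamine binding protein of Dermacentor reticulatus, was low, with 1 read against 37. So 2 of the 4 were higher in ET, none was called higher in SET, and the excess rests on contig_1638 and contig_10066.

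Group II salivary lipocalins also had more engorged reads, 4267 against 2358, a ratio of 1.69 (1.61 to 1.78). Of their 8 contigs, 4 were higher in ET and 0 in SET, with a median log2 fold of 1.36 and a range of -0.53 to 2.64. The most abundant, contig_8642, was at 43.4 RPKM in ET and 63.7 RPKM in SET. Contig_5269 was at 40.5 against 5.35 RPKM and 7.58-fold higher in ET (6.56 to 8.80). No group II contig differed 10-fold on the CPM + 1 scale, although contig_8420, with 165 reads against 4, had a CPM ratio of 38.5 (14.8 to 143).

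Group I, the largest kind, counted 14 contigs higher in ET and 35 in SET, with log2 folds from -8.02 to 8.18. It held the most reads in both, 72609 against 113454, and its share was 1.67 times as large in SET. Salivary lipocalins with no group leaned further that way, with 10 against 31 of 51 contigs, 9354 against 66769 reads and a 7.65 times larger semi-engorged share. Lipocalins with no other word counted 6 against 10 of 19, with 22879 against 96749 reads, and 12 of these 19 differed 10-fold. Of these 3 kinds, 23 of 61, 24 of 51 and 7 of 19 contigs lie in the block of high contig numbers, marked off by engorged zeros. It holds 0 group II and 0 serotonin and histamine binding contigs. No lipocalin in the block was higher in ET, so the contrast in contig counts between kinds depends partly on it. Of the 3 group III contigs, which share a best match, contig_23282 had 405 reads against 0, whereas contig_46844 had 6 against 1001 and contig_42841 had 5 against 741. The single group V contig (contig_15355) had 291 against 381 reads. The lipocalin-interacting membrane receptor, whose human namesake takes up a lipocalin from outside the cell, had 992 reads against 184, a ratio of 5.03 (4.30 to 5.92).

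**Figure D3:**
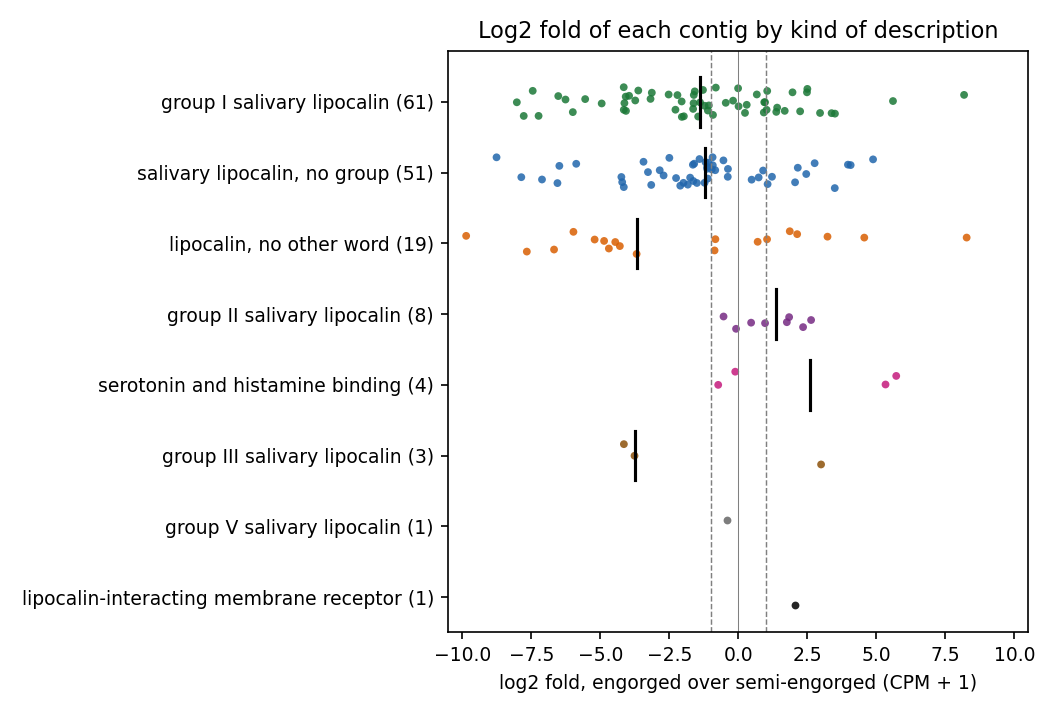
Log2 fold of each contig, engorged over semi-engorged on the CPM + 1 scale (x axis), by kind of description with the number of contigs (y axis). Black bars are medians and dashed lines a 2-fold difference. Group I spans -8.02 to 8.18, while group II stays between -0.53 and 2.64.

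Contigs with the same best-matching database protein often stood on opposite sides. The 148 contigs matched 48 proteins, of which 25 were matched by 2 or more contigs, 125 contigs in all. For 15 of these 25 proteins, at least 1 contig was higher in ET and at least 1 in SET. Another 4 had higher contigs only in ET and 6 only in SET. Among 2484 other proteins matched by 2 or more contigs compared, 7.89% had contigs on both sides, against 60% here, but lipocalin proteins were matched by more contigs. With at least 4 contigs, the figures were 10 of 12 lipocalin proteins and 159 of 662 others, 24.0%. More lipocalin contigs were also called in either direction, 78.4% against 28.5% of all contigs, which by itself raises such counts. Whether sharing a match adds to them was not tested. In 5 lipocalin proteins the opposite contigs each differed 10-fold.

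The contig with the highest RPKM was often another one in each library. Of 21 lipocalin proteins with at least 2 contigs and 20 reads in each library, the leading contig differed in 17, 81.0% against 36.1% of 2375 other proteins. With at least 4 contigs this was 11 of 12, against 54.4% of 655 others. A different leading contig does not require opposite sides. Both leading contigs of L7LT22 were higher in ET, and both of L7LR69 and both of L7LR91 were higher in SET. How far the larger part of lipocalin contigs called in either direction raises this count was not tested. The leading contigs described next were mostly chosen after their values were seen.

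Protein C9W1E4 of Rhipicephalus sanguineus, named only lipocalin, was matched by 10 contigs. Its leading engorged contig was contig_1270, with 19838 reads against 6, and its leading semi-engorged contig was contig_45036, with 6 against 55320. Neither of them was more than a trace in the other library, and a further 2 contigs were called on the engorged and 5 on the semi-engorged side. Summed over the 10 contigs there were 21239 engorged and 78796 semi-engorged reads, a 3.97-fold lower engorged share. The change of the sum was thus far smaller than that of either leading contig.

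Protein L7MFR9, a group I fragment of Rhipicephalus pulchellus, was matched by 10 contigs too. Contig_446 led in ET, while contig_35380 led in SET and kept 4554 of its reads in ET against 20808, and 3 contigs stood on the engorged against 6 on the semi-engorged side. Their sums were 29560 against 51500 reads, a 1.87-fold lower engorged share. Protein L7LQ77, also group I, had the most contigs, 13. Contig_17561 had 2758 engorged reads against 0, and contig_49799 had 0 against 8086. With each 0 set to 3 reads, the former was 858-fold higher (exact lower limit 697) and the latter 2887-fold lower (2348). The sums were 3493 and 10466 reads.

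For L7LQT0, a salivary lipocalin with 10 contigs, contig_18580 had 1650 reads against 0 and contig_50120 had 0 against 7417. For L7LQY1, group I with 9 contigs, contig_9727 had 2406 against 356 and contig_49752 had 0 against 9378. For L7LR47, group I with 4 contigs, contig_6763 had 610 against 1 and contig_49676 had 0 against 14002. In all 3 proteins the summed reads were higher in SET, 10818, 13240 and 22479 against 2103, 2782 and 612. The protein L7LQR5 went the other way, with 3789 against 908 reads over 9 contigs, led by contig_4266 with 3558 against 161 and by contig_51285 with 0 against 427. So did group I L7LT22, with 4433 against 843 reads over 3 contigs, mostly on contig_34275 with 3089 against 323. In L7MGZ1, a salivary lipocalin fragment, contig_49781 had 0 reads against 5015 and contig_9606 had 63 against 0. Contig_49799, contig_50120, contig_49752, contig_49676, contig_51285 and contig_49781 all lie in the block of high contig numbers. That block was marked off by engorged zeros, so their lack of engorged reads is partly selected.

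Other proteins kept 1 leading contig or 1 side. Both group II proteins with several contigs, L7LRB1 and L7MM71, were led by the same contig in both libraries, contig_8642 and contig_5269, and so was group I L7LQJ3, by contig_13417. The 3 contigs of B7ZDG8, a lipocalin precursor of Ixodes ricinus, were all higher in ET, with 874 reads against 10 in sum. All 4 contigs of group I L7LR91 were higher in SET, with 83 against 2182 reads. Summed per protein, 11 of the 48 were higher in ET, 25 in SET and 12 in neither. Contigs with 1 best match may be separate genes, alleles or pieces of 1 transcript, and reads of near-identical contigs may have been divided between them by the authors' counting. Which of these holds was not tested, as no contig sequence was used here.

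**Figure D4:**
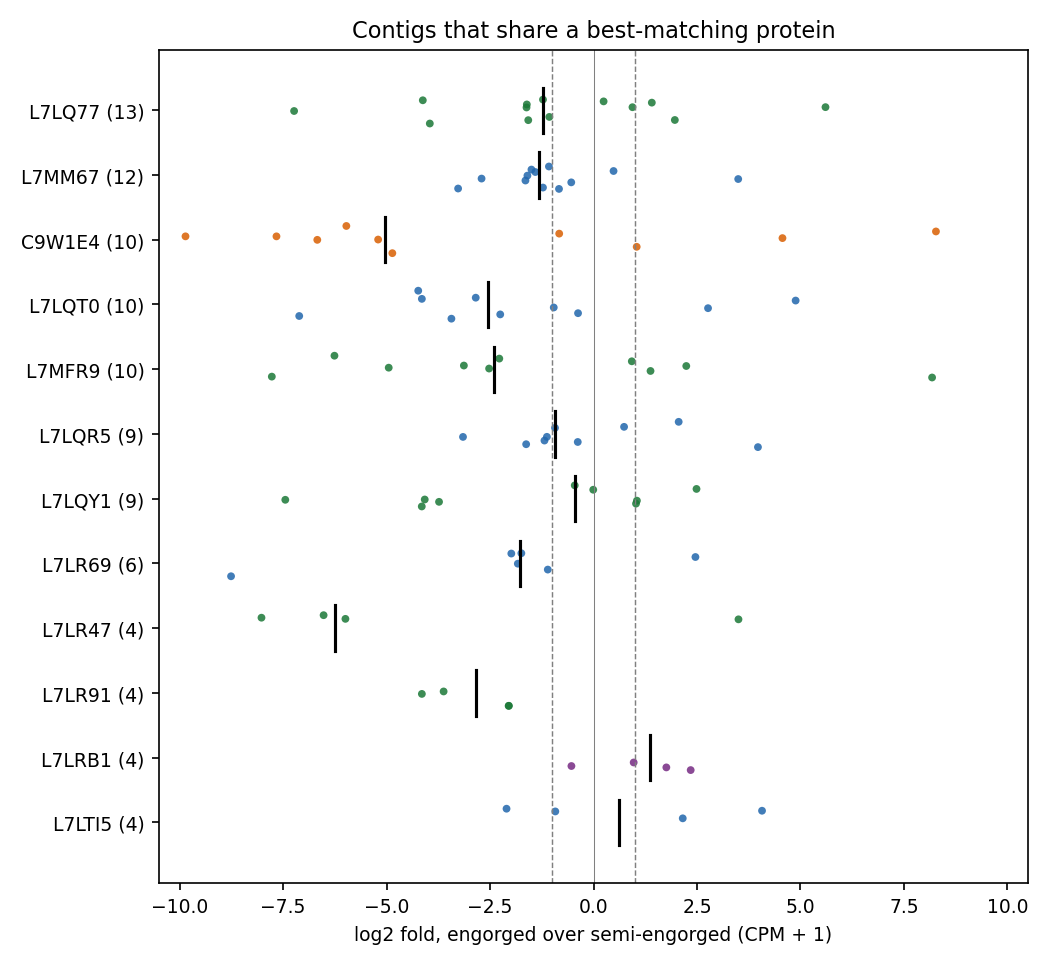
The 12 database proteins matched by at least 4 lipocalin contigs (y axis, with the number of contigs), with the log2 fold of each contig, engorged over semi-engorged on the CPM + 1 scale, on the x axis. Colours give the kind of description as in the plot of CPM in both libraries, black bars are medians and dashed lines a 2-fold difference. In 10 of the 12 proteins contigs lie beyond both dashed lines.

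By species, 125 contigs (84.5%) matched Rhipicephalus pulchellus best, a larger part than the 47.9% of all described contigs. A Haemaphysalis protein was matched by 0 lipocalin contigs, and by only 481 contigs in the whole assembly, where 20145 were described. Such matches were thus rare throughout, and whether the 0 sets the family apart was not tested. The 125 counted 30 against 68 contigs and 0.152% against 0.342% of reads. Rhipicephalus sanguineus was matched by 13, of which 4 were on the engorged and 7 on the semi-engorged side, and 10 differed 10-fold. The soft tick Argas monolakensis was matched by 2 contigs, and both were higher in SET. Contig_6864 had 364 reads against 10101, a 29.7-fold difference (26.8 to 33.1), and contig_20501 had 287 against 4082, a 15.2-fold difference (13.5 to 17.2). Of the 2 contigs that match Amblyomma americanum, contig_45361 had 77 reads against 2711 and contig_30550 had 38 against 1. The kinds with few contigs follow single contigs, so the counts by species describe these contigs only.

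At least 100 reads in each library were found for 19 of the 148 lipocalins, 12.8%, against 31.3% of all contigs and 46.6% of described ones. Of the 19, 7 were in neither class, 7 were higher in ET and 5 in SET. The most even was group I contig_3936, at 23.6 RPKM in ET and 23.4 RPKM in SET (ratio 1.01, 0.958 to 1.06). At 2352 bases it is longer than all other lipocalin contigs but the membrane receptor, which has 2640. The median length of the 148 was 702.5 bases, with quartiles of 601 and 777, against 562 for all contigs and 837 for described ones. Lengths hardly differed by side, with medians of 730.5 bases for the engorged and 712 for the semi-engorged side.

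A large part of the semi-engorged side came from contigs with high contig numbers. From contig 49608 on, the table holds 6017 contigs, of which 65.7% had no engorged read and 0% had no semi-engorged read, against 0.939% and 1.93% of the rest. These made up 11.1% of all contigs but 36.5% of the lipocalins, 54 of 148. Of the 54, SET was higher for 46 (85.2%) and ET for 0, and 38 had no engorged read. Of all block contigs compared, 40.1% were higher in SET and 0.474% in ET. The part of the 54 with no engorged read was thus near the 65.7% of the whole block. The other 94 lipocalins counted 38 against 32, with 12 and 17 of them differing 10-fold, so calls in both directions were still common among them (40.4% and 34.0%). All contigs outside the block counted 14.3% and 13.1%. Without the block the median log2 fold of lipocalins was 0.47, and the share of reads was still lower in ET, 0.202% against 0.290%. Contigs on both sides were then found for 9 of 20 lipocalin proteins (45%), against 7.45% of 2389 others. The leading contig differed in 10 of 17 (58.8%), against 34.9% of 2311 others, a smaller gap than with the block. Of 28 contigs with at least 100 semi-engorged reads and no engorged read, 27 lay in the block. Among contigs with that many semi-engorged reads, 27 of 39 lipocalins in the block had no engorged read, against 700 of all 1282 there. Outside the block this was 1 of 43 lipocalins, against 177 of all 20724. The block was marked off by its engorged zeros, so leaving it out raises the median log2 fold by construction, and how it arose was not tested.

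Other secreted salivary families spread in a like manner. Kunitz-domain inhibitors of proteases counted 18 against 33 of 63 contigs, proteins related to Da-p36, named for a Dermacentor salivary immunosuppressant, 13 against 28 of 47, and metalloproteases 27 against 78 of 162. A 10-fold difference was found for 47.6% of Kunitz, 38.3% of Da-p36-related and 30.2% of metalloprotease contigs, beside 34.5% of lipocalins. The engorged share of reads was 0.864 of the semi-engorged share for Kunitz, 0.697 for Da-p36-related proteins and 0.697 for metalloproteases, beside 0.386 for lipocalins. Without the block of high contig numbers these ratios were 1.11, 0.900, 0.730 and 0.696, so the Kunitz direction turned and lipocalins lay close to metalloproteases. Contigs on both sides were found for 1 of 8 Kunitz, 3 of 4 Da-p36-related and 5 of 22 metalloprotease proteins. This compares with 15 of 25 lipocalin proteins and 7.89% of other described proteins. Such counts depend on contigs per protein, and the families differ in this. Kunitz had 64 contigs on 21 proteins, Da-p36-related 47 on 6, metalloproteases 165 on 43 and lipocalins 148 on 48. With 1 library per stage these differences between families have no test.

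**Figure D5:**
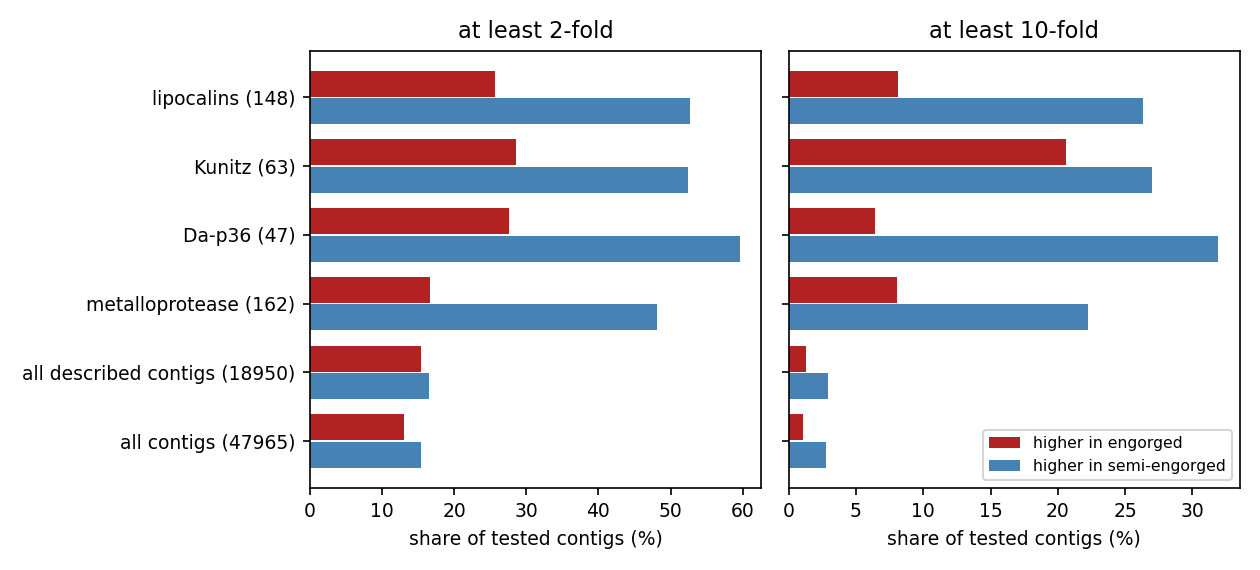
Percent of compared contigs (x axis) at least 2-fold (left) and at least 10-fold (right) higher in the engorged (red) or semi-engorged (blue) library, on the CPM + 1 scale, for 4 secreted families, all described contigs and all contigs, with the number compared. Lipocalins, at 25.7% and 52.7% for 2-fold, lie above all contigs, at 13% and 15.5%, as do the other families.

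Genes with related roles were counted by word lists. No contig name matched the list of other proteins of the lipocalin-like fold, such as fatty acid-binding proteins and apolipoprotein D. Of the tick's own receptors and enzymes for amines, 9 contigs were found and 5 could be compared, of which 0 were higher in ET and 2 in SET. A serotonin receptor (contig_2294) had 358 reads against 1116, a 0.299-fold ratio (0.265 to 0.338), and a dopamine receptor (contig_15224) had 582 against 1302, a ratio of 0.417 (0.378 to 0.460). Evasins, which bind host chemokines, counted 2 against 3 of 7. Among them contig_14707 had 671 reads against 138 and contig_51686 had 0 against 240. Mammalian haemoglobin and albumin contigs, a sign of blood in the sample, were all 3 higher in ET, with haemoglobin alpha (contig_1325) at 786 reads against 148. Both haemoglobins match Erinaceus europaeus best and the albumin Rattus norvegicus, which does not settle the host. The part of blood in the lipocalin values was not tested.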

How the data were processed

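The authors deposited, per the file headers, whole-number read counts and RPKM values for each assembled contig in each library. Libraries were made with a TruSeq RNA kit from Trizol-extracted RNA, per the labels' protocols. CASAVA 1.8, TopHat and Cufflinks are named, with no role, in the submitters' processing notes. The sources used here name no assembler, annotation search or read counter. Contig lengths were computed from counts, RPKM and column totals.

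Counts were scaled to CPM by library total, and log2 folds were taken after adding 1 CPM, which understates low contigs. Contigs with at least 20 reads over both libraries were compared. Ratios printed without log2 are CPM ratios with exact intervals, and a count of 0 was set to 3 reads per library. Named contigs are the 10 most abundant per library, the 6 largest folds per direction with at least 100 reads, and the most abundant contig of each description with at least 4 contigs, 23 in all. Others were named after their values were seen. Members and lists were chosen with earlier results of these data known. Calculations used Python 3.11.15 with scipy 1.17.1, and edgeR 4.0.16 for TMM factors, and were tested on simulated counts.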

Additional observations from a re-analysis of the deposited data

How the results depend on the processing

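The counts of 38 and 78 lipocalin contigs higher in ET and SET changed by less than 1.5 times with no filter, a filter of 100 reads, a log2 fold of 2, RPKM, TMM factors, the median ratio set to 0, totals without the 50 most abundant contigs, and 0 counts set to 3 reads without a pseudocount (the last chosen after seeing the data). Raising the pseudocount to 10 CPM lowered the counts to 16 and 39 of 148. Summing the contigs of each database protein left 11 and 25 of 48 proteins, or 22.9% and 52.1%. These shares were close to the 25.7% and 52.7% of the 148 single contigs. Among the 4 contigs named for histamine or serotonin binding, 2 were higher in ET and 0 in SET. Leaving out the block of upper contig numbers gave 38 and 32 of 94 contigs, or 40.4% and 34.0%.

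The median of -1.12 was -3.16 with a pseudocount of 0.1, -0.18 with 10, -1.79 with a filter of 100 reads, -1.67 with RPKM and -4.04 with 0 counts set to 3 reads. It turned to 0.47 without the block and to 2.61 for histamine or serotonin binding names. The ratio of shares, 0.386, was 0.416 with summed RPKM, 0.329 with the median ratio set to 0, 0.451 with totals without the 50 most abundant contigs, 0.696 without the block, 0.378 without each library's most abundant lipocalin, 0.367 for names with lipocalin and 0.383 without the membrane receptor (added after seeing the data). It turned to 8.55 for the 4 histamine or serotonin binding contigs. The cause was not tested beyond the smaller sets themselves. The scalings moved the median of all contigs from -0.049 to -0.161 or 0.067. All 23 contigs named by rule kept their side under 6 settings (138 comparisons). They were picked for many reads or large folds in these same data, and most lay far from the 2-fold line. Their stability therefore says little about the other lipocalins.

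No paired analysis was possible because each stage has 1 library.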
